A study of Mus musculus with 6 samples.

Results

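Transcripts of B16F10 mouse melanoma tumours treated with AZD5363, MK1775 and anti-PD-1 together were compared with those of tumours given DMSO and control IgG. The comparison covers the 8059 of 43629 genes that had 20 or more counts in at least 1 of both libraries. Of these, 2667 genes reached 20 counts in both, 5276 in the control library alone and 116 in the library of the drug combination alone. Mice of the AZD5363+MK1775+anti-PD-1 group received both kinase inhibitors and the antibody, and their library is called the combination pool. Mice of the control group received DMSO and a control IgG, and their label names no inhibitor. Mice of both groups were female C57BL/6J animals, 8 weeks old at injection, and carried B16F10 cells, a melanoma line of the same strain, under the skin. Dosing was daily and ended when tumours of the control group had grown to 2000 mm3. Each group is 1 RNA pool from several tumours and 1 library, so no difference has a replicate check and no p-value is given.

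AZD5363 inhibits AKT, a kinase of growth factor and survival signalling that keeps FOXO transcription factors out of the nucleus. MK1775 inhibits WEE1, the kinase that holds the mitotic kinase CDK1 inactive until DNA is replicated and repaired. Anti-PD-1 blocks an inhibitory receptor of T cells, and T cells that recognise a tumour release interferon-gamma, which makes the cells around them transcribe GTPases, chemokines and the genes of antigen presentation.

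The combination pool held 338474 counts and the control pool 1591673. Levels were scaled by TMM, a method that sets the bulk of genes equal between libraries, and are given as CPM, counts per 1000000 scaled counts. On this scale 1 count was 4.97 CPM in the combination pool and 0.655 CPM in the control pool, so a gene of equal level had 0.132 counts in the combination pool for each count in the control pool. A gene is called higher or lower where the ratio of its levels, combination over control, was at least 2 in that direction and every value in its 95% exact interval was past 1.5-fold. Intervals follow ratios in parentheses and cover counting error only, since each side is 1 library. The counts carry no molecular identifiers, so the intervals may be too narrow even for that. A gene without counts in a pool is set against 3 counts there, and its ratio is a bound at that floor. The end of its 95% interval is nearer to 1 than this bound.

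Both pools carried the transcripts of pigment cells. The 7 melanocyte markers Tyr, Tyrp1, Dct, Pmel, Mlana, Sox10 and Mitf summed to 17060 CPM in the combination pool and 21175 CPM in the control pool. In these pooled tissues, fewer cells of a type and less RNA per cell cannot be told apart.

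The makeup of the combination pool differed from that of the control pool before any single gene was compared. Ribosomal RNA, counted under Gm42418, mt-Rnr1 and mt-Rnr2, made up 27.4% (27.3 to 27.6, exact binomial interval) of its counts, against 0.121% (0.116 to 0.127) in the control pool. Gm42418, a nuclear ribosomal RNA gene, had 43490 counts in the combination pool and 85 in the control pool. Nuclear protein-coding genes took 65.0% of counts in the combination pool and 96.7% in the control pool. Small nuclear, small nucleolar and mitochondrial transfer RNAs together took 0.288% in the combination pool and 0.0177% in the control pool. Among them Snord13 had 253 counts in the combination pool and 22 in the control pool, and Gm22710, a small nuclear RNA, 88 and 0. The part of this difference in the ratios of other genes was not tested.

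**Figure D1:**
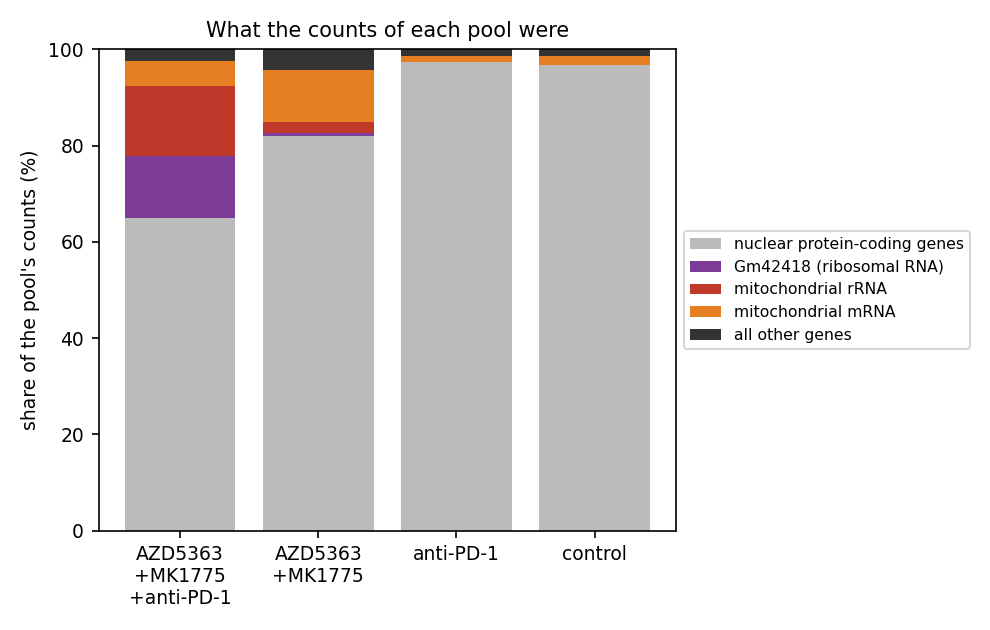
Share of each pool's counts (%, stacked to 100) taken by nuclear protein-coding genes, Gm42418, the mitochondrial ribosomal RNAs, mitochondrially encoded messenger RNAs and all other genes. Nuclear protein-coding genes took 65.0% of the combination's counts and 96.7% of the control's, and the pools of each part alone are shown between them.

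Ratios also moved with transcript length. The tested genes were put in 10 classes by the length of their longest annotated transcript. The median log2 ratio was -0.70 in the class of the shortest transcripts, with a median length of 913.5 bases, and 0.83 in the class of the longest, with 8564 bases. In the shortest class 8.33% of genes were called higher and 23.3% lower, and in the longest class 33.7% were higher and 1.37% lower. The anti-PD-1 pool, set against the same control pool, had medians of -0.18 and 0.06 in these classes. Counts of genes called are therefore also given relative to genes of like length, a setting added after the data were seen. What part length has in a ratio was not tested.

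**Figure D2:**
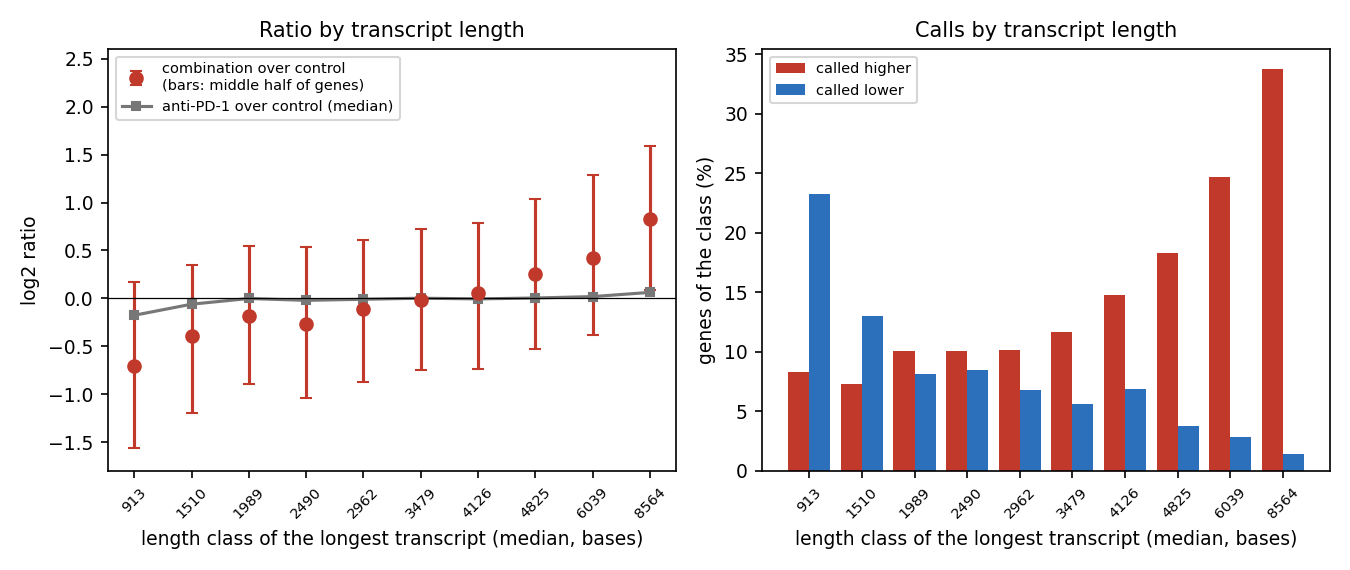
Left, median log2 ratio to control by length class of the longest transcript (median length in bases), for the combination pool (red, bars from the lower to the upper quartile) and the anti-PD-1 pool (grey). Right, share of genes (%) called higher (red) or lower (blue) in the combination pool, from 8.33% and 23.3% in the shortest class to 33.7% and 1.37% in the longest.

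By the size rule 1202 of the 8059 genes were higher in the combination pool (14.9%) and 646 were lower (8.02%), 1848 in all (22.9%). The counts given for each list below are to be read beside these shares. The split depended on the scaling and on the count minimum. With a minimum of 50 counts 714 genes were higher and 638 lower. Against library totals, which count the ribosomal RNA, 605 genes were higher (7.51%) and 1720 lower (21.3%), and the median of all genes moved by -0.69 on the log2 scale. DESeq2 size factors gave 830 higher and 1159 lower, and a shift of -0.40. Library totals without the ribosomal RNA genes gave 960 higher and 923 lower. Each of these scalings moves every ratio down, so all 646 genes called lower stayed lower, and 605 of the 1202 called higher remained so with library totals. Relative to genes of like length, 1080 genes were higher (13.4%) and 541 lower (6.71%). All 116 genes that passed the count minimum through the combination pool alone were called higher, which the minimum itself brings about. Among the 7943 genes with 20 or more control counts, 1086 were higher (13.7%) and 646 lower (8.13%).

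**Figure D3:**
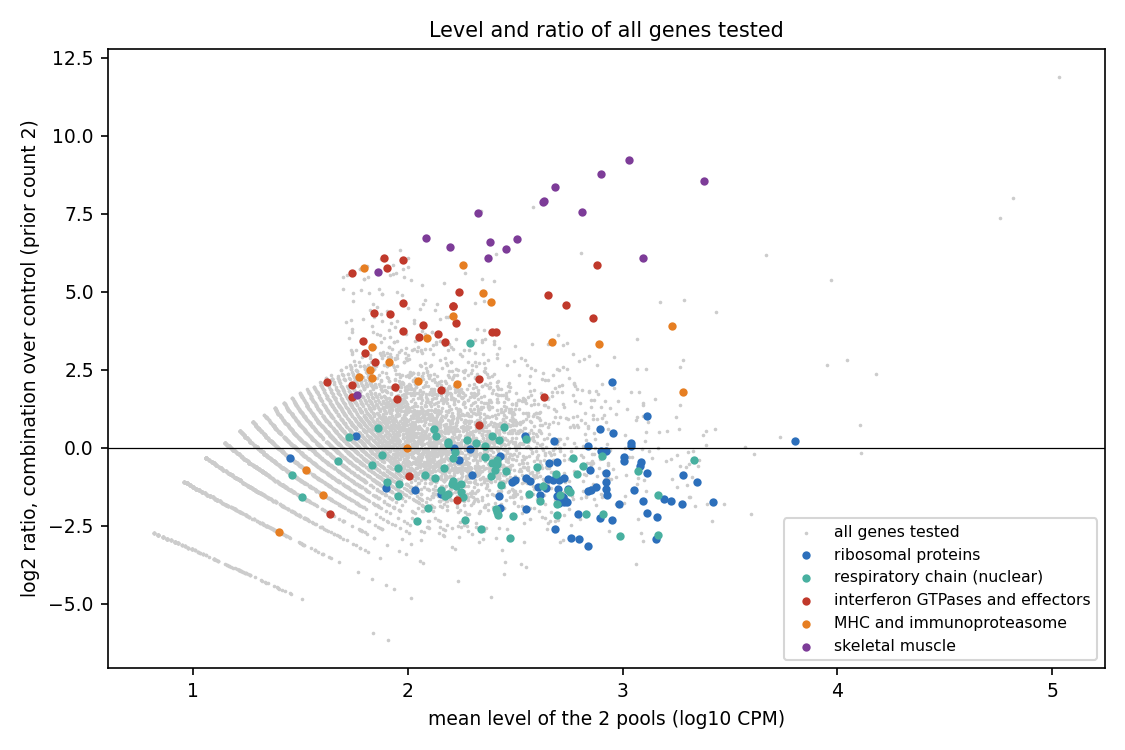
Each point is a gene tested, at its mean level in both pools (log10 CPM) and its log2 ratio, combination over control. Most interferon and antigen-presentation genes and all skeletal muscle genes lie above 0 and most ribosomal protein and respiratory chain genes below it, among all genes tested in grey.

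Of the transcripts nearest to the drugs' targets, most were not called. The list of AKT and WEE1 pathway genes had 7 of 31 tested members higher and 3 lower, against 14.9% and 8.02% of all genes tested, 4 and 3 relative to genes of like length, and 4 and 7 with library totals. Its median log2 ratio was 0.29, against -0.01 for all genes tested. Akt1 had 112 counts in the combination pool and 909 in the control pool, a ratio of 0.936 (0.762 to 1.14). Wee1 had 1 count in each pool, so its level could not be compared. Pkmyt1, which encodes the other kinase that restrains CDK1, was at 0.39 (0.104 to 1.04) on 4 counts against 78.

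Around these targets 1 gene, the checkpoint kinase gene Atm, passed the minimum through the combination pool alone. It had 87 counts in the combination pool and 12 in the control pool, a ratio of 55.1 (30.0 to 111), and was still higher relative to genes of like length. Of the 30 members with 20 or more control counts 6 were higher and 3 lower. Cdc25a, the phosphatase that removes the WEE1 mark from cyclin-dependent kinases, was 5.31-fold higher (3.93 to 7.14) on 79 counts against 113. Gsk3b, a kinase that AKT inactivates, was 2.84-fold higher (2.24 to 3.58) and the mTORC2 subunit gene Rictor 2.32-fold (1.56 to 3.38). Neither passed the rule relative to genes of like length. Cdk1 itself was lower, at 0.208 (0.14 to 0.299), with 30 counts against 1096. Mtor, at 2 counts against 98, was at 0.155 (0.0185 to 0.575), and Akt1s1, an mTORC1 inhibitor gene and AKT substrate, had 0 counts against 51 and was at least 2.24-fold lower. Of the genes of PD-1 and other checkpoints, Cd47, a signal against being engulfed, was higher at 8.71-fold (5.61 to 13.6), the only one called of 5 tested. The PD-1 ligand gene Cd274 had 19 counts in the combination pool and 6 in the control pool and did not reach the minimum.

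The interferon-inducible GTPases, proteins that attack the membranes of intracellular microbes, had the highest summed ratio after skeletal muscle among the lists with 10 or more tested genes. All 12 members tested were higher, and 7 of them passed the minimum through the combination pool alone. All 5 members with 20 or more control counts were higher as well, against 13.7% of all such genes. All 12 were also higher with library totals and relative to genes of like length. Summed over the 16 listed genes found in the table, they held 1132 counts (5630 CPM) in the combination pool and 307 (201 CPM) in the control pool, a ratio of 28 (24.7 to 31.9), and 17.3 with library totals. Iigp1 had 300 counts in the combination pool and 36 in the control pool. Gbp7 was 31.8-fold higher (22.6 to 45.7) on 176 counts against 42. Igtp was 25.3-fold higher (19 to 34.1) on 210 counts against 63. Gbp2b had 22 counts in the combination pool and 0 in the control pool, at least 55.7-fold higher. Gm4951, a neighbour of Iigp1, had 32 counts against 1. Tgtp2 was nearest to control at 4.01-fold (2.44 to 6.46), but it has a near-identical copy, Tgtp1, and reads may be split between them.

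Interferon-gamma signals reach genes through the GAS element, and type I interferon signals through the ISRE, which IRF proteins bind. The 250 bases before the start were searched on both strands for the ISRE, written as TTTC, any 2 bases and TTTC (GAAA, any 2 bases and GAAA on the other strand), and for the GAS, TTC, any 3 bases and GAA, which reads the same on both strands. Sequences are those of RefSeq on GRCm38.p6. The ISRE letters were in all 9 promoters that the RefSeq table held for the GTPase list. That compares with 3.46% of the promoters of all 27025 genes in the table. The GAS letters were in 5 of these 9 promoters (55.6%), against 8.13%. A further interferon-inducible GTPase gene, called higher but kept on another list, had a promoter with neither motif. Among type I interferon effector genes 11 of 37 promoters held the ISRE (29.7%) and 6 the GAS (16.2%), and among signalling genes 3 of 20 held the ISRE (15%) and 6 the GAS (30.0%). Of 7 class I loading genes none held either motif, and of 7 immunoproteasome genes none held the ISRE and 1 the GAS. Of 9 class I chain genes 3 held the ISRE and 1 the GAS, and of 12 class II genes 1 held each. Of the promoters of genes called higher, 5.17% held the ISRE and 6.96% the GAS, of those called lower, 3.50% and 5.05%, and of all genes tested, 3% and 6.88%. A motif may overlap another, and a match of letters is a description, not a binding site. The promoters below belong to the 4 called interferon genes with the highest lower bounds for which the RefSeq table holds a promoter with a motif. They are printed on the plus strand, the strand of all 4 genes, and capitals mark the ISRE and GAS letters.
Gbp2b, chr3:142594597-142594846: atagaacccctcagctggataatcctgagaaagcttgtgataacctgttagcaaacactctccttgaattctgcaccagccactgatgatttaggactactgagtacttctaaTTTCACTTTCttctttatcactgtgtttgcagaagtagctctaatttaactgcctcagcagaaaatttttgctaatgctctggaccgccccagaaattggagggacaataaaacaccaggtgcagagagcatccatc
Irf8, chr8:120736108-120736357: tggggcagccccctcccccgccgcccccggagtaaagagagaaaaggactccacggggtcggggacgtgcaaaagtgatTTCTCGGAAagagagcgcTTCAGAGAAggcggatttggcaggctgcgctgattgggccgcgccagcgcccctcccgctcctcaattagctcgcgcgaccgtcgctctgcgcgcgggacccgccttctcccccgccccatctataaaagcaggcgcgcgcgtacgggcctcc
Gbp7, chr3:142530086-142530335: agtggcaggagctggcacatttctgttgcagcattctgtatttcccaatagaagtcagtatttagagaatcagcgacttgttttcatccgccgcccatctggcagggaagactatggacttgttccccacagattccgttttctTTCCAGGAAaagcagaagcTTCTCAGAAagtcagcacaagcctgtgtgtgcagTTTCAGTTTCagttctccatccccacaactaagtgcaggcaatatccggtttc
Igtp, chr11:58199306-58199555: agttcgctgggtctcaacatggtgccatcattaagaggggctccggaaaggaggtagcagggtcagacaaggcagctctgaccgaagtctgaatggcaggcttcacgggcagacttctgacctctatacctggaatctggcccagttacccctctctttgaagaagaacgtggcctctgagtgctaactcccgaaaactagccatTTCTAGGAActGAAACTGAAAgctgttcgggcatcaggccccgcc

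Gbp2b held an ISRE beginning 137 bases before its start and no GAS. Gbp7 held an ISRE 53 bases before its start, and GAS letters at 106 and 87 bases. Igtp held both within 45 bases of its start, the GAS at 45 and the ISRE at 34. Irf8 held no ISRE and a pair of GAS matches at 171 and 153 bases.

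Several transcription factors that carry interferon signals were higher, and the receptors and JAK kinases tested were not called. Of 14 signalling genes 7 were higher and none lower. The median log2 ratio was 1.32, and 4 of the 11 with 20 or more control counts were higher. With library totals 6 were higher, and relative to genes of like length 7. Irf8, a factor of myeloid and interferon-gamma responses, had 58 counts in the combination pool and 8 in the control pool, a ratio of 55.1 (26.2 to 134). Irf9, the DNA-binding part of the type I interferon complex, was 15.2-fold higher (7.73 to 31.2) on 28 counts against 14. Irf2 was 8.47-fold (4.82 to 15) and Stat3 2.86-fold (2.40 to 3.41) higher. The receptor gene Ifngr1 stood at 1.66 (1.02 to 2.6), Ifngr2 at 1.22 (0.307 to 3.52), Jak1 at 1.66 (1.26 to 2.17) and Jak2 at 1.04 (0.399 to 2.31). The feedback inhibitor gene Socs3 was at 0.76 (0.148 to 2.44). Ifng, the gene of interferon-gamma, had 0 counts in the combination pool and 1 in the control pool, so its level was not detectable at this depth.

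Type I interferon effectors followed, with exceptions. Of 25 tested 21 were higher and 2 lower, and of the 18 with 20 or more control counts 14 were higher and 2 lower. They summed to 1432 counts in the combination pool and 2144 in the control pool, a ratio of 5.07 (4.74 to 5.43). Rsad2, which encodes the antiviral enzyme viperin, was 18.2-fold higher (14.6 to 22.8) on 278 counts against 116. Herc6, a ligase for the ubiquitin-like ISG15, was 14.0-fold higher (9.91 to 20.1), and Isg15 itself 11.3-fold (7.31 to 17.6) on 55 against 37. Xaf1 had 31 counts against 0 and Ifi44 38 against 1. Parp9 and Dtx3l, partners that overlap on opposite strands, were 13.3-fold and 9.71-fold higher. Bst2, the tetherin gene, was 3.09-fold higher (2.50 to 3.8). Against the list, Ifi27 was lower at 0.305 (0.173 to 0.502) on 16 counts against 398, and Ifitm2, which has near-identical copies, at 0.207 (0.0421 to 0.622). Both fell short of the rule relative to genes of like length, where 20 of 25 were higher and none lower. With library totals 16 were higher and 3 lower. Ifitm3 stood at 1.67 (1.22 to 2.25).

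Sensors of nucleic acid in the cytosol and endosome had 7 of 10 members higher and none lower, with 4 of the 7 that had 20 or more control counts. With library totals 5 were higher, and relative to genes of like length 6. Ddx58, which encodes the RNA sensor RIG-I, was 27-fold higher (12.6 to 64.3) on 32 counts against 9, and Ifi204, of the DNA-binding IFI200 family, 29.6-fold (14.5 to 66.6) on 39 against 10. Tlr3 was 10.9-fold (6.01 to 19.9) and Tmem173, the STING gene, 2.87-fold higher (1.62 to 4.88). Cgas, the gene of the DNA sensor upstream of STING, was at 2.85 (1.17 to 6.35) on 9 counts against 24 and was not called. Mavs and Tbk1, which relay the signal, were at 0.573 (0.151 to 1.56) and 1.11 (0.386 to 2.63).

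**Figure D4:**
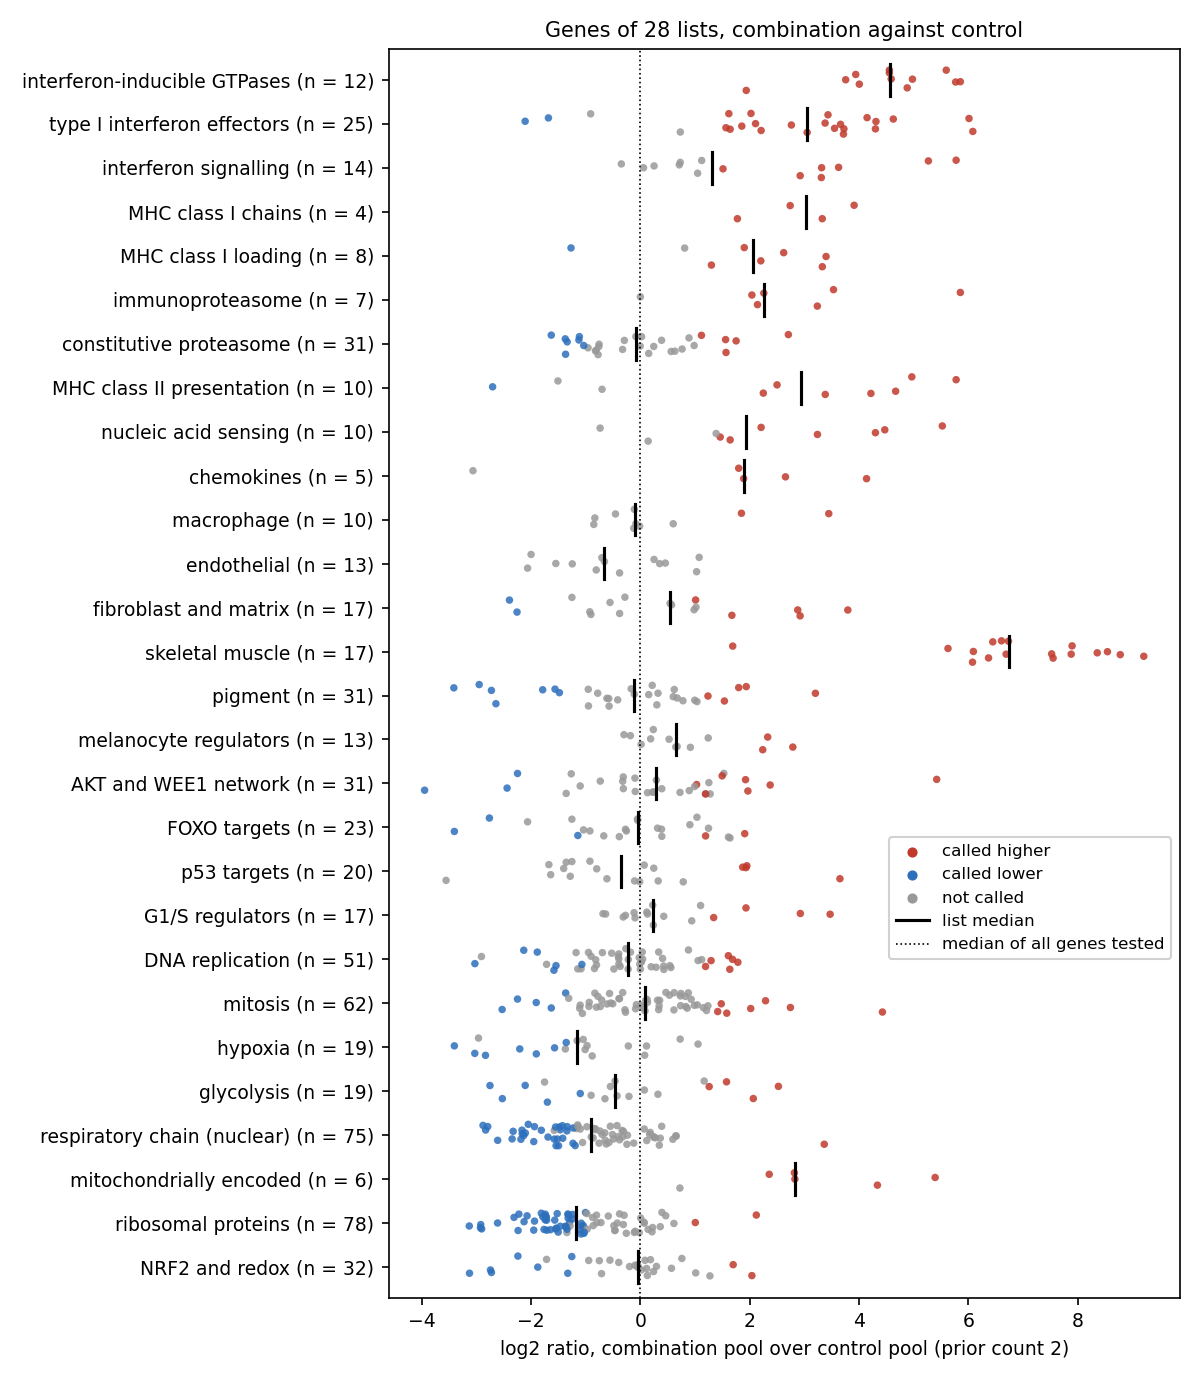
Log2 ratio, combination over control, of each tested gene (points) in lists of genes (1 line each, with n tested), coloured by call, with the list median (bar) and the median of all genes tested (dotted line, -0.01). Interferon, antigen-presentation and skeletal muscle lists lie to the right, and the hypoxia, nuclear respiratory chain and ribosomal protein lists to the left.

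Antigen presentation by MHC class I was higher from the peptide cutter to the surface chain. All 4 class I chain genes tested were higher, H2-K1, H2-D1 and H2-T22, whose near-identical copies make single values uncertain, and B2m at 3.43-fold (3.10 to 3.78) on 593 counts against 1315. The list summed to a ratio of 6.29 (5.88 to 6.73), 3.90 with library totals, and 12.6 (11.4 to 14.0) without B2m, which leaves genes with near-identical copies. All 4 stayed higher with library totals and relative to genes of like length. The peptide transporter genes Tap1 and Tap2 were 6.36-fold (4.58 to 8.80) and 5.18-fold (2.50 to 10.4) higher, the bridging chaperone gene Tapbp 11.1-fold (7.82 to 15.9) and the trimming peptidase gene Erap1 4.05-fold (2.06 to 7.67). Tap1 overlaps Psmb9 on the opposite strand. In the loading list 6 of 8 were higher, and Pdia6, an oxidoreductase of the endoplasmic reticulum, was lower at 0.414 (0.359 to 0.476) on 212 counts against 3888. Pdia6 held most of the list's counts, and the summed ratio was 1.29 (1.20 to 1.38) with it, 3.30 (3.02 to 3.60) without it and 0.799 with library totals. Relative to genes of like length 6 loading genes were higher and 1 lower, and with library totals 4 and 1.

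The proteasome divided by subunit type. The immunoproteasome, which replaces catalytic subunits under interferon and cuts peptides suited to class I, had 6 of 7 members higher and none lower, also with library totals and relative to genes of like length. Psmb8 and 1 other member passed the minimum through the combination pool alone, and of the 5 with 20 or more control counts 4 were higher. Psmb8 had 72 counts in the combination pool and 6 in the control pool, a ratio of 91.2 (39.9 to 257). Psmb9 was 12.9-fold higher (7.88 to 21.7) on 46 counts against 27, and Psmb10 4.61-fold (2.98 to 7.04) on 37 against 61. The constitutive proteasome had 5 of 31 members higher and 7 lower, against 14.9% and 8.02% of all genes tested. Its summed ratio was 0.913 (0.868 to 0.961). There were 7 higher and 2 lower relative to genes of like length, and 2 and 12 with library totals. Psmb5 and Psmb7, catalytic subunits that Psmb8 and Psmb10 replace, stood at 1.11 (0.817 to 1.49) and 0.584 (0.346 to 0.932). Psmb6, replaced by Psmb9, was lower at 0.458 (0.324 to 0.631), and was not called relative to genes of like length. Psme3, the activator subunit of the nucleus that interferon-gamma does not induce, was at 1.00 (0.594 to 1.60).

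Class II presentation, a task of dendritic cells, B cells and macrophages that interferon-gamma also brings about in other cells, had 7 of 10 members higher and 1 lower. Ciita and 1 other member passed the minimum through the combination pool alone, and of the 8 with 20 or more control counts 5 were higher and 1 lower. With library totals 7 were higher and 2 lower, and relative to genes of like length 7 and 0. The summed ratio was 8.03 (7.08 to 9.10), on 519 counts against 491. Ciita, the factor that switches class II genes on, had 25 counts in the combination pool and 0 in the control pool. H2-Ab1 was 21.4-fold higher (13 to 36.6) on 62 counts against 22, and the peptide exchange gene H2-DMb1 5.14-fold (2.89 to 8.98) on 23 against 34. Of the genes of the RFX complex, which holds CIITA at class II promoters, Rfxap was lower at 0.11 (0.00275 to 0.634) on 1 count against 69, a call lost relative to genes of like length, and Rfx5 was at 0.593 (0.186 to 1.46). The thiol reductase gene Ifi30 was at 0.327 (0.0872 to 0.865) and was not called.

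In the pools of each part alone the GTPase, class I chain and class II lists stood near or below control. With anti-PD-1 alone the signalling list was at 1.24-fold control (1.15 to 1.34) and the sensing list at 1.35-fold (1.16 to 1.55). The GTPases had 0 counts in the AZD5363+MK1775 pool, where 3 counts are 109 CPM, and held 130 counts or 131 CPM in the anti-PD-1 pool. Their level in the combination pool was 42.8-fold that of the anti-PD-1 pool (35.7 to 51.8). Class I chains reached 7883 CPM with the combination, 546 CPM with AZD5363+MK1775, 1182 CPM with anti-PD-1 and 1253 CPM in control tumours. Class II genes reached 2581 CPM with the combination, 182 CPM with AZD5363+MK1775, 365 CPM with anti-PD-1 and 321 CPM in control tumours. The ratios of these pools to control share the same control library, and the AZD5363+MK1775 pool held only 26639 counts.

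**Figure D5:**
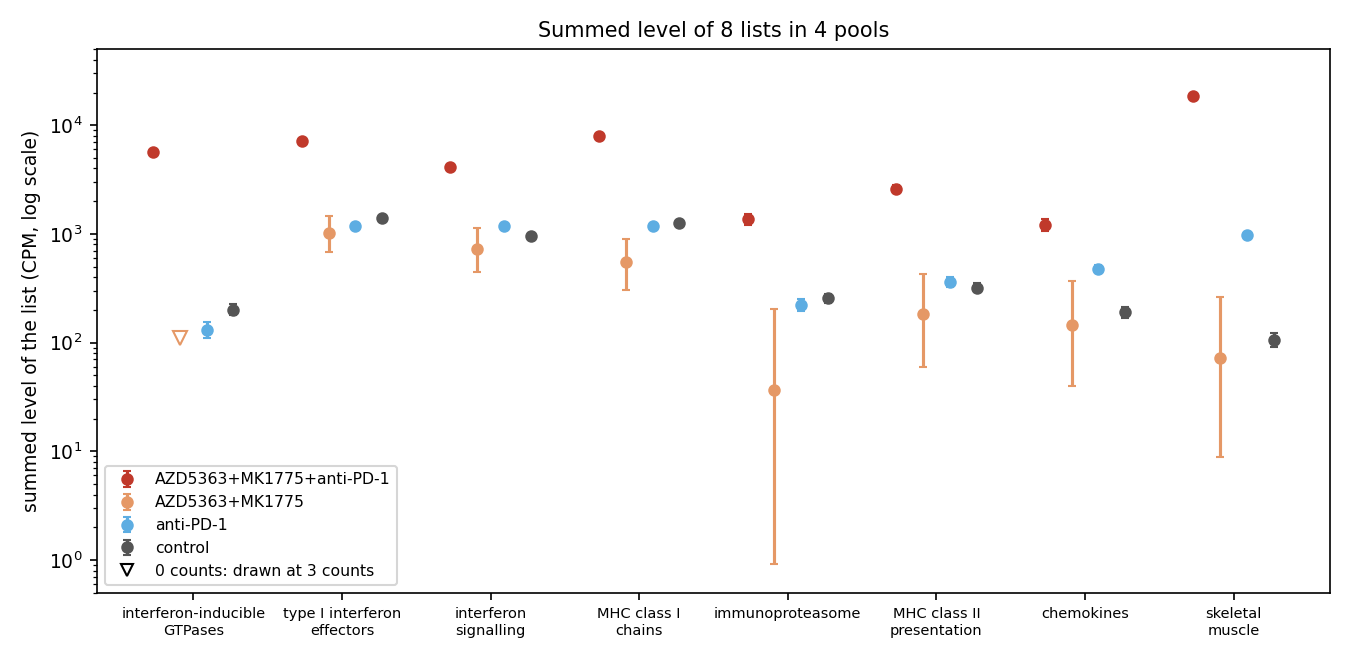
Summed level (CPM, log axis) of 8 lists in the AZD5363+MK1775+anti-PD-1, AZD5363+MK1775, anti-PD-1 and control pools, with exact Poisson intervals as bars. In every list shown the AZD5363+MK1775+anti-PD-1 pool is highest, for the GTPases at 5630 CPM against 201 CPM in the control pool.

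Most chemokine genes tested were higher, on few counts. Of 5 chemokine genes tested 4 were higher and none lower, 4 also relative to genes of like length and 2 with library totals. Summed, the list was at 6.32 (5.30 to 7.52), and the anti-PD-1 pool stood at 2.49 (2.15 to 2.90) over the same control. The combination pool was at 2.53-fold (2.16 to 2.96) of the anti-PD-1 pool. Cxcl9 had 54 counts in the combination pool and 20 in the control pool, a ratio of 20.5 (12.1 to 36.2), and Cxcl10 101 and 119, a ratio of 6.45 (4.90 to 8.48). Both are ligands of the T cell receptor CXCR3. Ccl5 was 4.18-fold (1.81 to 9.15) and Ccl6 3.70-fold (2.02 to 6.56) higher. Pf4, a platelet and macrophage chemokine, had 0 counts against 26 and was not called.

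Transcripts of the immune cells themselves were scarce in both pools. The 9 T cell markers, which include Cd3d, Cd3e, Trbc2, Cd8a and Cd4, held 18 counts in the combination pool and 3 in the control pool, a ratio of 45.6 (13.3 to 242), and none reached 20 counts. The longer T cell list of 27 genes held 65 counts against 35, a ratio of 14.1 (9.22 to 21.9). The only member of that list to reach 20 counts in either pool was not called, at a log2 ratio of -0.33. The 6 markers of cytotoxic cells held 13 counts against 3, among them Prf1 and Nkg7 with 5 counts each against 0. The B cell markers Cd79a, Cd79b and Ms4a1 had 0 counts in both pools. Ptprc, the gene of the pan-leukocyte protein CD45, had 40 counts against 1. The 8 macrophage markers summed to 617 CPM in the combination pool and 115 CPM in the control pool. The ratio was 5.35 (4.22 to 6.77), and 2.62 (1.80 to 3.74) without C1qa. With anti-PD-1 alone these markers stood at 2.69-fold control (2.22 to 3.25). In the longer macrophage list, part of which pigment cells also express, 2 of 10 tested members were higher and none lower. With library totals 1 was higher and 1 lower, and relative to genes of like length 3 were higher. Summed over its 29 genes the longer list was near control, at a ratio of 1.27 (1.20 to 1.35), and 0.788 with library totals. C1qa, the complement recognition subunit made by tissue macrophages, was 11.5-fold higher (8.08 to 16.6) on 82 counts against 54 and C1qc 3.94-fold (1.91 to 7.78). Below the minimum, Csf1r had 7 counts in each pool, a ratio of 7.60 (2.27 to 25.4), Adgre1 4 against 8, at 3.8 (0.837 to 14.2), and Cd68 2 against 15, at 1.01 (0.112 to 4.36). Of 3 dendritic cell genes tested only Irf8 was higher, which passed the minimum through the combination pool alone. Neither of the 2 with 20 or more control counts was called, and Itgax had 1 count against 3. What part the immune cells' own transcripts have in the interferon and class II lists was not tested.

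Skeletal muscle transcripts were the protein-coding group furthest above control. The 22 listed genes held 3720 counts (18502 CPM) in the combination pool and 162 (106 CPM) in the control pool, a ratio of 174 (149 to 205), and 108 with library totals. All 17 tested were higher, 15 of which passed through the combination pool alone. The 2 with 20 or more control counts were Acta1, skeletal alpha-actin, at 71.9 (53.9 to 97.6) on 492 counts against 52, and Eno3, a muscle enolase, at 3.42 (1.84 to 6.10). Ttn, the gene of the sarcomere spring titin, had 958 counts against 16. Ckm, muscle creatine kinase, had 319 counts against 2, the fast troponin gene Tnnt3 195 against 1, and Pvalb, the calcium buffer of fast fibres, 85 against 0. Fast myosin genes Myh4 and Myh1, which are near-identical copies of each other, had 430 and 49 counts in the combination pool and 2 and 0 in the control pool. The slow myosin gene Myh7 had 5 counts against 0. With AZD5363+MK1775 alone the list stood at 72.8 CPM on 2 counts, and with anti-PD-1 alone at 976 CPM. How these transcripts came into the tumour samples is not given in the sources used here, and their part in the ratios of other groups was not tested.

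Other tissue transcripts moved less. Of 17 fibroblast and matrix genes 5 were higher and 2 lower, with a summed ratio of 2.05 (1.89 to 2.21), 1.38 (1.25 to 1.52) without Sparc. The counts were 5 and 2 relative to genes of like length, and 3 and 4 with library totals. Col1a2 was 15-fold (10.1 to 22.5), Col3a1 8.12-fold (4.73 to 14.0) and Sparc 7.64-fold (6.53 to 8.94) higher, whereas Col1a1, the partner chain of Col1a2 in type I collagen, was at 2.01 (1.27 to 3.07) and was not called. Fbln1, a basement membrane glycoprotein gene, was lower at 0.177 (0.0211 to 0.658). Of 13 endothelial genes none was called, and they summed to a ratio of 0.849 (0.716 to 1.00), and at the same rule with library totals 3 were lower. Kdr, the main receptor of VEGF, was at 1.38 (0.855 to 2.15) on 24 counts against 132. Of 7 fat cell genes tested Car3, also a muscle gene, had 153 counts against 2 and passed the minimum through the combination pool alone. Of the 6 that reached the minimum in the control pool only Lpl was called, at 8.40-fold higher (5.77 to 12.2). Fabp4 was at 0.995 (0.582 to 1.61) and Adipoq had 0 counts against 1. Of 4 genes of red blood cells 2 were lower and none higher, and relative to genes of like length 1 was higher and 1 lower. Hbb-bs, a beta-globin gene, had 3 counts in the combination pool and 724 in the control pool, a ratio of 0.0315 (0.00648 to 0.0924) that a near-identical copy makes uncertain. The list summed to 0.183 (0.114 to 0.279) with it and 0.772 (0.454 to 1.24) without it. The keratin markers of skin had 0 counts in both pools.

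Pigment genes, the programme of the tumour cells' lineage, lay nearer to control in sum than many did singly. Of 31 tested 5 were higher and 7 lower, against 14.9% and 8.02% of all genes tested. The list's summed ratio was 0.861 (0.838 to 0.884), or 0.533 with library totals. Dct, which makes a melanin precursor, had 2432 counts in the combination pool and 20773 in the control pool, a ratio of 0.889 (0.852 to 0.928). Tyr, the rate-limiting enzyme of melanin synthesis, was 4.01-fold higher (2.44 to 6.46) on 28 counts against 53, and Atp7a, which supplies copper to tyrosinase, 9.57-fold (7.02 to 13.1) on 97 against 77. Rab27a, which docks melanosomes to actin, was 3.57-fold higher (2.46 to 5.11). Mlana, a melanoma antigen that T cells recognise, was lower at 0.288 (0.229 to 0.359) on 84 counts against 2212, as were the transporter gene Slc45a2 at 0.357 (0.283 to 0.444) and Ptgds at 0.127 (0.0813 to 0.19). Pmel, also an antigen, was at 0.653 (0.58 to 0.733) and was not called. Relative to genes of like length 5 were higher and 6 lower, and with library totals 3 and 12.

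Of the regulators of the melanocyte state 3 of 13 were higher and none lower, against 14.9% and 8.02% of all genes tested. There were 4 higher relative to genes of like length and 3 with library totals. Mitf, the master regulator, was at 0.811 (0.698 to 0.939) on 200 counts against 1873 and Sox10 at 1.44 (1.10 to 1.86). The called genes were Zeb2 at 7.08 (5.41 to 9.26), Sox9 at 5.43 (3.11 to 9.33) and the receptor tyrosine kinase gene Axl at 5.28 (2.61 to 10.4). Zeb2 and Sox9 encode transcription factors. All 3 were also higher relative to genes of like length.

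FOXO factors switch genes on when AKT is inactive. Of 23 such genes tested 2 were higher and 3 lower, with a median log2 ratio of -0.05, against 14.9% and 8.02% of all genes tested and a median of -0.01. Set against genes of like length, 1 was higher and 2 lower, and with library totals 1 and 4. Klf6 was 3.83-fold higher (2.79 to 5.21). The receptor gene Insr was at 2.53 (1.10 to 5.32), the cell cycle inhibitor gene Cdkn1b at 0.824 (0.476 to 1.34) and Txnip at 1.31 (0.929 to 1.81). Ddit4, an inhibitor of mTORC1 that hypoxia and p53 also induce, was lower at 0.0829 (0.017 to 0.245), with 3 counts against 275. Of 20 p53 targets 4 were higher and none lower, 4 and 1 relative to genes of like length, and 2 and 5 with library totals. Trp53 itself was higher at 14.2 (8.50 to 24.4) on 45 counts against 24, as was Cdkn1a, which encodes the cyclin-dependent kinase inhibitor p21, at 3.91 (2.76 to 5.47) on 54 counts against 105. Mdm2, the ligase that removes p53, was at 0.57 (0.36 to 0.863), Ccng1 at 0.991 (0.667 to 1.43) and Phlda3 at 0.301 (0.0962 to 0.722), and Bbc3, the death gene PUMA, had 0 counts against 38.

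The D-type cyclins, which open the cell cycle, were higher. Ccnd2 had 432 counts in the combination pool and 293 in the control pool, a ratio of 11.2 (9.63 to 13), Ccnd1 was at 7.69 (6.42 to 9.21) and Ccnd3 at 2.55 (1.96 to 3.30). With Cdkn1a they were the 4 called of 17 tested, where 14.9% of all genes tested were higher and 8.02% lower. Relative to genes of like length 4 were higher, and with library totals 3. Their kinases were not called, with Cdk4 at 0.801 (0.518 to 1.19) and Cdk2 at 1.18 (0.82 to 1.66), nor were Ccne1 at 1.10 (0.563 to 1.97) and E2f1 at 0.932 (0.48 to 1.66).

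Replication and mitosis genes went both ways around no change. Of 51 replication genes 6 were higher and 6 lower, with a summed ratio of 0.834 (0.789 to 0.881), and of 62 mitosis genes 7 were higher and 5 lower, with 0.988 (0.952 to 1.02). With library totals 1 replication gene was higher and 16 lower, and 3 mitosis genes higher and 18 lower. Relative to genes of like length the counts were 6 and 5 for replication and 9 and 3 for mitosis. Lig1, which seals DNA, was 2.46-fold higher (2 to 3.01), whereas Rpa2, a subunit of the single-strand binding protein, was at 0.117 (0.0534 to 0.224) on 9 counts against 583 and Dut, which clears dUTP, at 0.341 (0.254 to 0.449). The proliferation marker Mki67 was at 1.01 (0.705 to 1.40) and Pcna at 0.692 (0.485 to 0.962). Among mitotic genes Kif20b, a kinesin of cell division, had 52 counts against 15, a ratio of 26.3 (14.6 to 50.4). Kif20b passed the minimum through the combination pool alone. Of the 61 mitosis genes that reached the minimum in the control pool 6 were higher and 5 lower. The kinetochore kinesin gene Cenpe was at 6.97 (4.93 to 9.85). The spindle checkpoint gene Mad2l1 was lower at 0.168 (0.089 to 0.29) on 13 counts against 587, and Birc5, survivin, at 0.386 (0.311 to 0.475). Repair genes had 7 of 28 higher and 1 lower, 5 and 1 relative to genes of like length, and 3 and 6 with library totals. Rad50 was at 4.96 (3.69 to 6.64), the cohesin genes Smc3 and Smc1a at 3.36 (2.55 to 4.39) and 3.29 (2.23 to 4.77), and Msh6, of mismatch repair, at 0.27 (0.128 to 0.505). Smc3 and Smc1a were also higher relative to genes of like length. Of 11 histone genes 3 were higher and 5 lower. The counts were 3 and 3 relative to genes of like length, and 1 and 5 with library totals. Among them were H3f3b at 0.385 (0.324 to 0.456) and Hist1h1e at 22 counts against 3. Hist1h1e passed the minimum through the combination pool alone. Of the 10 histone genes that reached the minimum in the control pool 2 were higher and 5 lower.

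Ribosomal protein and nuclear respiratory chain genes, both lists of short transcripts, were the largest groups below control. Of 78 ribosomal protein genes 2 were higher and 45 lower, with a median log2 ratio of -1.17 and a summed ratio of 0.528 (0.517 to 0.54). Their median transcript length was 925.5 bases, and relative to genes of like length 3 were higher and 25 lower, with a median log2 ratio of -0.59. Near-identical copies touched 65 of the 78, and their reads may have been split. Among those without a copy, Rpl37 was at 0.237 (0.192 to 0.289) on 100 counts against 3208, Rpl39 at 0.2 (0.152 to 0.259) and Rps20 at 0.464 (0.41 to 0.524), while Rpl27a stood at 1.05 (0.909 to 1.21). Of 75 respiratory chain genes 1 was higher and 30 lower, with a summed ratio of 0.482 (0.466 to 0.499), and relative to genes of like length 3 were higher and 18 lower. The lower genes spanned the complexes, with Ndufa1 of complex I at 0.159 (0.0814 to 0.279), Uqcr10 of complex III at 0.237 (0.144 to 0.369), Cox7b of complex IV at 0.139 (0.103 to 0.185) and Atp5d of the ATP synthase at 0.252 (0.12 to 0.471). Ndufa10, of complex I, was the one higher, at 10.9 (7.52 to 16) on 72 counts against 50. Complex II stood nearer to control, with Sdha at 0.699 (0.499 to 0.957) and Sdhb at 0.647 (0.492 to 0.837), neither called.

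Genes that mitochondrial DNA encodes for the same respiratory complexes were mostly higher. Of 6 mitochondrially encoded genes 5 were higher and none lower, and their sums gave a ratio of 4.74 (4.65 to 4.83), with 5 higher also by library totals and 6 relative to genes of like length. Here mt-Nd4 had 3889 counts in the combination pool and 4165 in the control pool, a ratio of 7.09 (6.79 to 7.41), mt-Nd5 was at 20.3 (18.1 to 22.9), and mt-Cytb at 1.65 (1.59 to 1.71) was not called. The mitochondrial ribosomal RNAs mt-Rnr1 and mt-Rnr2 were 164-fold (155 to 175) and 257-fold (240 to 277) higher. Mitochondrially encoded messenger RNA took 5.19% of counts in the combination pool, 10.9% in the AZD5363+MK1775 pool and 1.77% in the control pool. Of 36 translation factors 5 were higher and 3 lower, near the shares of all genes tested, 5 and 1 relative to genes of like length, and 2 and 12 with library totals. Among them were Pabpc1, the poly(A) binding protein, at 6.01 (5.41 to 6.67), Eif3c at 6.93 (5.75 to 8.36) and Eef2 at 0.811 (0.696 to 0.942). Of 22 nucleolar and ribosome assembly genes 7 were higher and 1 lower, 4 and 2 relative to genes of like length, and 1 and 2 with library totals. Ncl, nucleolin, was higher at 2.57 (2.28 to 2.90), but not relative to genes of like length.

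Several hypoxia genes were lower, and the gene of their regulator was not called. Of 19 tested none was higher and 7 were lower, with a median log2 ratio of -1.16 and a summed ratio of 0.493 (0.446 to 0.544). Relative to genes of like length 8 were lower, and with library totals 13. Bnip3, a mitophagy receptor, was at 0.12 (0.0751 to 0.183) on 22 counts against 1390, but it has near-identical copies. Adm, adrenomedullin, was at 0.117 (0.014 to 0.431) on 2 counts against 130, Pdk1, which keeps pyruvate from mitochondria, at 0.331 (0.194 to 0.53), and Egln1, the oxygen sensor that marks HIF-1alpha, at 0.383 (0.206 to 0.653). Hif1a was at 1.66 (1.38 to 1.98) and Vegfa at 0.489 (0.281 to 0.798), and neither was called. Glycolysis divided, with 4 of 19 higher and 5 lower, against 14.9% and 8.02% of all genes tested. The counts were 4 and 4 relative to genes of like length, and 2 and 8 with library totals. The glucose transporter gene Slc2a1 was at 0.302 (0.174 to 0.489), Aldoc at 0.143 (0.0681 to 0.265) and Ldha, which has near-identical copies, at 0.232 (0.206 to 0.26) on 300 counts against 9832. Hk2, hexokinase, was higher at 4.22 (3.52 to 5.04), as were the lactate exporter gene Slc16a3 at 3.06 (2.03 to 4.52) and Aldoa, an enzyme of muscle too and a gene with copies, at 5.78 (5.09 to 6.55). Without Ldha the summed ratio of the list was 1.38 (1.30 to 1.47), and with it 0.713 (0.677 to 0.751).

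Metal-binding and redox genes were lower in part. Of 32 NRF2 and redox genes 2 were higher and 7 lower, against 14.9% and 8.02% of all genes tested. The counts were 4 and 4 relative to genes of like length, and 1 and 11 with library totals. The metallothionein gene Mt1 was at 0.148 (0.114 to 0.19) on 63 counts against 3224, Mt2 at 0.418 (0.331 to 0.52), and Hmox1, which breaks down haem, at 0.095 (0.0114 to 0.349) on 2 counts against 160. Mt2 was not called relative to genes of like length. Fth1, ferritin heavy chain, was at 0.271 (0.215 to 0.337) and has a near-identical copy. Gclc, the rate-limiting enzyme of glutathione synthesis, was higher at 4.4 (2.48 to 7.63), and Nfe2l2, the gene of NRF2, was at 1.23 (0.848 to 1.74). Of 9 aldehyde dehydrogenase genes only Aldh2, of mitochondria, was called, on 1 count against 309.

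Stress responses had no common direction. Their counts stand beside 14.9% higher and 8.02% lower among all genes tested. Of 20 heat shock genes 6 were higher and 4 lower, 5 and 3 relative to genes of like length, 1 and 7 with library totals, and 2 and 6 by the size factors of DESeq2. Among them were Hspa9, of mitochondria, at 2.17 (1.83 to 2.56), Hsph1 at 2.35 (1.60 to 3.39) and Dnajb1 at 0.121 (0.0389 to 0.284). Hspa1b, a strictly stress-induced HSP70 gene, had 1 count in the combination pool and 255 in the control pool. Of 27 genes of the ATF4 response 3 were higher and 3 lower, 3 and 4 relative to genes of like length, and 2 and 10 with library totals. Among the 26 with 20 or more control counts 2 were higher and 3 lower. Atf4 was at 0.329 (0.252 to 0.423) on 64 counts against 1476 and the amino acid transporter subunit gene Slc3a2 at 0.375 (0.235 to 0.57), while the tRNA synthetase genes Sars and Eprs were at 20.8 (11.3 to 40.4) and 4.80 (3.97 to 5.78). Asns, asparagine synthetase, was at 0.614 (0.258 to 1.26) and Ddit3, CHOP, at 0.674 (0.328 to 1.25). Of 26 chaperones of the endoplasmic reticulum 4 were higher and 3 lower, 4 and 3 relative to genes of like length, and 2 and 6 with library totals. Among the 25 with 20 or more control counts 3 were higher and 3 lower. The list included Pdia4 at 14.8 (8.29 to 27.2), which passed the minimum through the combination pool alone. It also held Pdia3 at 10.3 (8.09 to 13.1), Hspa5, BiP, at 0.858 (0.764 to 0.962) and Ero1l at 0.262 (0.157 to 0.414). Apart from the stress responses, none of 25 cholesterol synthesis genes was higher and 5 were lower, against the same shares of all genes tested. Among the lower was Sqle, squalene epoxidase, at 0.263 (0.157 to 0.415). The list summed to a ratio of 0.767 (0.705 to 0.833), with 4 lower relative to genes of like length and 10 with library totals.

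The 15 genes outside these lists that were furthest above control by interval all passed the minimum through the combination pool alone, so that they had to differ, and they are given as a description. Mybpc2, Hrc, Klhl31, Pygm, Myom1 and Casq1 are genes of skeletal muscle, with 24 to 40 counts in the combination pool and at most 2 in the control pool. Ddx60, Slfn2, Mndal and Gm4841 are known from interferon responses, with 31, 21, 73 and 41 counts in the combination pool and 0, 0, 8 and 4 in the control pool. Ptprc and Cybb are leukocyte genes. Cybb, which encodes a subunit of the phagocyte NADPH oxidase, was 50.1-fold higher (29.0 to 92.9) on 99 counts against 15. Gatad2b, of a chromatin remodelling complex, had 38 counts against 2, Rrp36 25 against 1 and Lyst, the gene of lysosome size mutated in beige mice, 38 against 3. Of the 241 tested genes named here, 59 overlap a gene on the opposite strand, Mybpc2 and Myom1 among them, and 18 have a near-identical copy. Reads over genes on opposite strands cannot be told apart without the strand setting of the counting. Mndal shares sequence positions with Ifi203 on the same strand, which a strand setting cannot resolve. All these values are uncertain.

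The 15 genes furthest below control outside the lists had varied roles. Atp5mpl, a small subunit of the ATP synthase, was at 0.074 (0.0505 to 0.105) on 32 counts against 3286. Hilpda, a lipid droplet protein induced by hypoxia, was at 0.0563 (0.0206 to 0.123) on 6 counts against 810 and Fam162a, also known as a hypoxia gene, at 0.0752 (0.0324 to 0.149) on 8 against 808. Cyb5a, cytochrome b5, was at 0.126 (0.0948 to 0.164) on 56 counts against 3382 and Idh2, isocitrate dehydrogenase of mitochondria, at 0.156 (0.114 to 0.208) on 47 against 2289. Polr2k, a small subunit of RNA polymerases, had 0 counts against 247, at least 10.8-fold lower, and Adam12, a metalloprotease, 0 against 211, at least 9.26-fold lower. Adam12 has a long transcript of 7675 bases. Sh2b1, an adaptor of insulin and JAK2 signalling, had 9 counts against 954 and Kctd15 10 against 766. Ss18l2, H2afj, Prmt2, Tmem161a, Cebpzos and Selenoh had 1 to 6 counts in the combination pool and 200 to 502 in the control pool. All 15 were also lower relative to genes of like length.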

How the data were processed

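RNA of subcutaneous B16F10 tumours was pooled by treatment and made into 3' tag libraries (QuantSeq 3' FWD), per the labels' protocols. The authors deposited counts per gene, 1 column a pool. Per the submitters' processing notes, HISAT2 2.1.0 and HTSeq were among the tools and GRCm38 the build; the strand setting is not given in the sources used here. Counts were used as deposited for 43629 genes, without 92 spike-in rows, which were all 0. The pools held 338474 (combination) and 1591673 (control) counts, so 3 counts, the floor for a count of 0, are 14.9 and 1.96 CPM. Library sizes were set by TMM (edgeR 4.0.16, R 4.3.3) over all pools, on the 4912 genes kept by its filter. Genes needed 20 counts in either pool. With 1 library a group there was no test across genes; ratios carry 95% exact conditional (Clopper-Pearson) intervals (scipy 1.17.1), and log2 ratios a prior count of 2. Near-identical copies share 95% or more over at least 100 of the last 250 transcript bases (BLAST 2.17.0). The procedure was checked on simulated counts, where decreases were called less often than increases. Genes simulated at 0.25-fold were called lower in 24 of 49 cases and at 0.5-fold in 5 of 50. Those at 3-fold were called higher in 42 of 49 cases and at 6-fold in 48 of 48. Genes named from a list are first those with the most counts, those furthest from 1 by interval and those against the list, and from outside the lists the 15 furthest from 1 in each direction without near-identical copies; some of these genes are not reported here. The genes compared and the lists were chosen with earlier results of these data known. The alternatives were other scalings, including DESeq2 1.42.0 size factors, other minima and rules, a thinned control pool and, added after the data were seen, ratios relative to genes of like length.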

Additional observations from a re-analysis of the deposited data

How the results depend on the processing

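No paired analysis was possible because each group is 1 pooled library. The count of 1202 genes higher was 605 with library totals, 714 with a minimum of 50 counts and 2183 with no minimum. The count of 646 genes lower was 1720 with library totals, 1159 with DESeq2 size factors and 1156 where the interval had only to exclude 1. The share of higher genes among those called was 65.0%, against 26.0% with library totals and 41.7% with DESeq2 size factors. With a minimum of 50 counts it was 52.8%. A gene with few control counts could not be called lower, as Bbc3 was not at 0 counts against 38. No list whose summed ratio passed the rule turned its direction under another scaling. With library totals 12 of 56 lists fell to the other side of 1, none of them called: class I loading, cell death, NF-kappaB, macrophage, melanocyte regulators, AKT and WEE1 pathway, FOXO, p53, DNA repair, heat shock, translation factors and nucleolar genes. Without the member with the most counts the long noncoding RNA list stood at 0.989, against 5.70 with Malat1, and the B cell and plasma cell list at 0, against 10.1 with Ighm, which had 4 counts in the combination pool and 2 in the control pool. The combination pool limits detection: 20 counts there are 99.5 CPM, against 13.1 CPM in the control pool. Leaving out a library was not possible with 1 a group. What part of any difference comes from the treatment and what part from the pools or libraries cannot be told apart.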

Other observations

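Genes of the actin cytoskeleton, the scaffold of cell shape and movement, went both ways. Of 36 tested 9 were higher and 5 lower, against 14.9% and 8.02% of all genes tested. The counts were 8 and 3 relative to genes of like length, 5 and 11 with library totals, and 6 and 9 by the size factors of DESeq2. The summed ratio was 2.24 (2.17 to 2.31) with Actb, whose near-identical copies make its value uncertain, and 1.16 without it. Pfn1, profilin, which feeds actin filaments, had 62 counts in the combination pool and 39 in the control pool, a ratio of 12.1 (7.96 to 18.5). Arpc2 and Arpc3, both subunits of the complex that branches actin filaments, were at 3.35 (2.86 to 3.91) and 0.249 (0.166 to 0.36). Of 44 splicing genes 6 were higher and 9 lower, 6 and 5 relative to genes of like length, and 1 and 21 with library totals, among them Sf3b2 at 3.03 (2.46 to 3.70) and Tra2a at 0.16 (0.0907 to 0.261). Of 36 lysosome and autophagy genes 4 were higher and 6 lower, 4 and 5 relative to genes of like length, and 1 and 12 with library totals, with the cholesterol exporter gene Npc1 at 5.48 (3.34 to 8.90) and Psap, the precursor of saposins, at 0.203 (0.147 to 0.275).

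Of 11 long noncoding RNAs 4 were higher and 3 lower, 4 and 4 relative to genes of like length, and 4 and 5 with library totals. Malat1 and Xist, both nuclear, had 1841 and 102 counts in the combination pool and 188 and 7 in the control pool. Both overlap genes on the opposite strand. Xist passed the minimum through the combination pool alone. Of the 10 long noncoding RNAs that reached the minimum in the control pool 3 were higher and 3 lower. Neat1, also nuclear, was at 0.645 (0.483 to 0.846) and was not called, but was lower relative to genes of like length. The small nucleolar RNA hosts Gas5 and Snhg3 were lower at 0.255 (0.186 to 0.342) and 0.192 (0.0765 to 0.401). Of 13 cell death genes none was called in either direction, and with library totals 1 was lower. Of 23 immediate early genes 2 were higher and 2 lower, 2 and 1 relative to genes of like length, and 1 and 3 with library totals, with Nr4a1 at 0.0987 (0.036 to 0.216) on 6 counts against 462. Of 6 targets of NF-kappaB tested Ier3 was lower and none higher, and relative to genes of like length 1 was higher and none lower. Of 14 chaperonin and prefoldin genes 1 was higher and 3 lower. The counts were 2 and 0 relative to genes of like length, and 1 and 5 with library totals. The gene called higher passed the minimum through the combination pool alone. Of the 13 that reached the minimum in the control pool none was higher and 3 were lower.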
